A study of Mus musculus with 11 samples.

Results

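*Nmu* encodes neuromedin U, a small secreted peptide that is cut from a longer precursor. It was examined here as 1 gene of the 19058 in the main count table, and as 1 of the 39017 in a second table of counts from the same libraries. It was chosen by its counts in these samples, as one of the largest increases in lacrimal glands of *Tlr7* KO compared to WT NOD mice, so its levels are described below and no p-value is given for it, although it was 1 of the genes in the fit across all genes and its call there was part of the rule that chose it. RNA from whole lacrimal glands of male NOD mice was sequenced, with 1 library per mouse, from 3 WT, 5 *Tlr7* KO and 3 *Ifnar1* KO animals. All groups share the NOD background, a strain in which males develop autoimmune inflammation of the lacrimal gland. *Tlr7* encodes an endosomal sensor of single-stranded RNA, and the *Tlr7* KO line (*Tlr7*-/-) carries a small deletion made by CRISPR/Cas9 editing of NOD embryos. *Ifnar1* encodes a chain of the type I interferon receptor, and the *Ifnar1* KO line is *Ifnar1* em16/em16. Each knockout is a single line in which the gene is disrupted in every cell of the animal, so no result below can be assigned to a cell type in which the lost gene acts. The WT and *Tlr7* KO mice were 20 to 22 weeks old, and no age was used for the *Ifnar1* KO mice. A further *Ifnar1* KO mouse, which grouped with WT mice and was inflamed like them, had been left out of that group by the study and was not analysed here, so the *Ifnar1* KO group was chosen in part by expression and inflammation. The same WT mice served both knockouts.

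Neuromedin U belongs to the neuropeptides, although it is also made outside the nervous system, in gut, pituitary and other tissues. It contracts smooth muscle, lowers feeding and activates group 2 innate lymphoid cells, and it acts through a pair of receptors, NMUR1 in peripheral tissues and NMUR2 mainly in the brain, that couple to Gq proteins, phospholipase C and release of calcium through inositol trisphosphate receptors. The precursor is cleaved at pairs of basic residues by proprotein convertases, trimmed by carboxypeptidases and amidated at its C-terminus by the enzyme PAM, and the amidated end is the part that the receptors recognise.

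*Nmu* (ENSMUSG00000029236) lies on the minus strand at chr5:76333495-76363788 of GRCm38, a span of 30294 bp. GENCODE gives it 1 transcript of 10 exons and 828 bases, of which 522 are coding for a precursor of 174 residues. The stretch that holds the end of the active peptide is shown because it is the product that the transcript counts stand for. It covers codons 142 to 169, in exons 7 to 9, at chr5:76335845-76340773 on the minus strand. The capitals mark codons 160 to 166, which encode the 7 residues of the conserved end. The codons after them encode the glycine that is used for amidation and a pair of basic residues where the precursor is cut.
Nmu coding stretch: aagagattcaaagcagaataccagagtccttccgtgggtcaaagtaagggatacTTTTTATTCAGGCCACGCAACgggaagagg

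The sequence just before the start of the gene is shown because the transcript level differed between groups. These 239 bases are from RefSeq on GRCm38.p6, at chr5:76363789-76364027 on the minus strand, and the capitals mark the E-box CACGTG, the sequence that CLOCK and BMAL1 and also MYC and USF factors can bind.
Nmu promoter: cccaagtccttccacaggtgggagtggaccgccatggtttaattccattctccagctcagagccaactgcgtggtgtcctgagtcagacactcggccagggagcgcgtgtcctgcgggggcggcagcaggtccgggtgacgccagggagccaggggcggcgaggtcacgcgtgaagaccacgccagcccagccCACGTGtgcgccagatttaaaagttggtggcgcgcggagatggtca

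A search of both strands found CACGTG 1 time, 46 bases before the start. This motif was also in 7.15% of the 32851 promoter windows in the RefSeq table. The window did not hold TGACGTCA (the cAMP response element, in 1.79% of windows) or TTCNNNGAA (the element that STAT factors bind, in 8.3%). The motifs were chosen after the sequence and earlier results had been seen, and a match or its lack describes the letters in this window only.

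*Nmu* was barely detected in WT lacrimal glands. The estimated counts were 22, 5 and 7 in WT mice 1, 2 and 3, which are 0.746, 0.213 and 0.191 counts per 1000000 (CPM, with library sizes scaled by the TMM method over all 11 mice). In *Tlr7* KO mice 1 to 5 they were 200, 276, 457, 243 and 58, or 7.66, 12, 17.3, 10.04 and 3.04 CPM. Every *Tlr7* KO mouse was above every WT mouse, and the lowest *Tlr7* KO value was 4.07 times the highest WT value. Groups of WT and *Tlr7* KO mice did not overlap for 30.6% of the 13937 genes tested, so the separation alone is common in this comparison. The *Tlr7* KO mean of 10.01 ± 5.29 CPM (SD, n = 5) was 26.1 times the WT mean of 0.384 ± 0.314 CPM (SD, n = 3). The ratio moved with the few WT counts. It was 49.1 without WT mouse 1, 21.3 without WT mouse 2 and 20.8 without WT mouse 3, and it lay between 21.3 and 30.6 when any *Tlr7* KO mouse was left out.

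*Ifnar1* KO mice did not have a common *Nmu* level. Mice 1 and 3 had 18 and 15 counts, or 0.615 and 0.627 CPM, whereas mouse 2 had 249 counts, or 9.31 CPM. Mice 1 and 3 were within the range of the WT mice, below WT mouse 1 but above WT mice 2 and 3. Mouse 2 was within the range of the *Tlr7* KO mice, at 15.1 and 14.8 times mice 1 and 3. The mean of 3.52 ± 5.02 CPM (SD, n = 3) therefore describes none of the animals, and its ratio to the WT mean, 9.17, fell to 1.62 without mouse 2. The ratio of medians was 2.94. The *Tlr7* KO mean was 2.85 times the *Ifnar1* KO mean, but 16.1 times it without *Ifnar1* KO mouse 2, and those groups overlapped too. The order of the group means was *Tlr7* KO, *Ifnar1* KO, WT. *Ifnar1* KO mice overlapped with both of their neighbours in that order, and their own SD was larger than their distance from the WT mean.

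**Figure D1:**
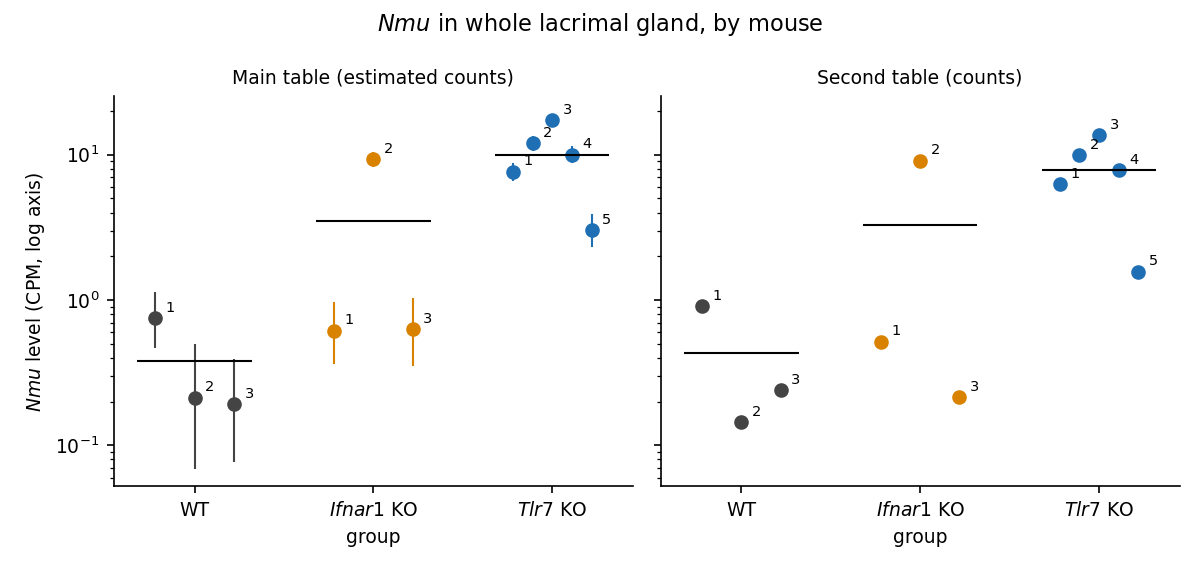
*Nmu* level in CPM on a log axis for each mouse, numbered by replicate, in the main table of estimated counts (left) and the second table of counts (right); horizontal lines are group means and vertical lines at left are exact 95% Poisson intervals, which cover counting error only. All *Tlr7* KO mice lie above all WT mice in both panels, and *Ifnar1* KO mouse 2, at 9.31 CPM, lies apart from mice 1 and 3 of its group.

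The second table showed the same separation at a smaller size. *Nmu* had 15, 2 and 5 counts in WT mice, 97, 133, 213, 109 and 17 in *Tlr7* KO mice and 9, 142 and 3 in *Ifnar1* KO mice. The *Tlr7* KO mean of 7.86 ± 4.49 CPM (SD, n = 5) was 18.2 times the WT mean of 0.431 ± 0.416 CPM (SD, n = 3), and the lowest *Tlr7* KO value was 1.73 times the highest WT value. *Ifnar1* KO mouse 2, at 9.12 CPM, was again within the *Tlr7* KO range, and the others of its group were at 0.517 and 0.215 CPM.

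Counting error was small for the high libraries and large for the low ones. The exact 95% Poisson interval was 15.8 to 19.0 CPM for *Tlr7* KO mouse 3 and 0.0769 to 0.394 CPM for WT mouse 3. The interval of WT mouse 1, 0.468 to 1.13 CPM, overlapped that of WT mouse 2 but lay above that of WT mouse 3, and the interval of *Tlr7* KO mouse 5, 2.31 to 3.93 CPM, lay apart from those of the other *Tlr7* KO mice. A count of 0 would allow up to 3 counts, which is 0.0820 to 0.157 CPM in these libraries, so *Nmu* was above that limit in each of them. In the second table the counts of WT mouse 2 and *Ifnar1* KO mouse 3, 2 and 3, were not above it. The 34 *Nmu* counts summed over WT mice were close to the minimum of 30 that a gene needed in order to be tested. No pair of WT mice reached 30, since their sums were 27, 29 and 12, and the WT sum in the second table was 22.

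Per kilobase of transcript, *Nmu* moved from the middle of the range of genes into its upper end. Its level was 0.463 CPM per kb in WT, above 42.8% of the 18708 genes with a known length, and 12.1 CPM per kb in *Tlr7* KO mice, above 93.4% of them. In *Ifnar1* KO mice the mean of 4.25 CPM per kb was above 82.7%. Among the 11 neuropeptide genes in the table, the mean per kb of *Nmu* was the third highest in WT, after *Penk* (the enkephalin precursor, 1.81) and *Nmb* (neuromedin B, 0.679). It was close to *Cck* (cholecystokinin, 0.458), and without WT mouse 1 it was below *Cck* and *Tac1* (the substance P precursor), at 0.244 against 0.349 and 0.346 CPM per kb. It was the highest in *Tlr7* KO mice, where *Penk* came next at 2.41 CPM per kb.

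The rule that chose *Nmu* used these values. Among genes called higher in *Tlr7* KO mice, with no overlap and with at least 10 CPM in the higher group, *Nmu* had the second largest fitted log2 fold change of 1351 genes, 4.69. *Scgb2b12*, a secretoglobin, was just above it at 4.75. *Gm14135* (4.05), *Thrsp* (a regulator of lipid synthesis, 3.78) and *Scgb2b19* (3.69) followed, and *Esp1* (a pheromone secreted in tears, 3.64) and *Nrg1* (the growth factor neuregulin 1, 3.63) were the next below. The *Tlr7* KO mean of *Nmu*, 10.01 CPM, was at the minimum itself. Without a minimum it was the second of 1865.

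The targeted genes and cell markers place these libraries. *Tlr7* was lower in *Tlr7* KO mice, at 0.776 ± 0.175 CPM (SD, n = 5) against 2.39 ± 0.746 CPM in WT mice (log2 fold change -1.63, adjusted p = 0.00351, edgeR's quasi-likelihood test). *Ifnar1* was lower in *Ifnar1* KO mice, at 9.02 ± 0.625 CPM against 13.5 ± 2.53 CPM in WT mice (-0.60, adjusted p = 0.0463, edgeR). Neither decrease was particular to its own knockout, since *Tlr7* was 0.563 ± 0.289 CPM (SD, n = 3) in *Ifnar1* KO mice (-2.09, adjusted p = 0.0256, edgeR) and *Ifnar1* was 9.54 ± 1.08 CPM (SD, n = 5) in *Tlr7* KO mice (-0.51, adjusted p = 0.021, edgeR). An edited transcript can still be counted, so these levels neither measure the loss of protein nor check the labels. Libraries held 20512315 to 28814250 counts. Between WT and *Ifnar1* KO mice the calls hung on single libraries, with 2679 genes called by edgeR, but 13 without WT mouse 1, 117 without WT mouse 3, 4818 without WT mouse 2, 1671 without *Ifnar1* KO mouse 2 and 0 without *Ifnar1* KO mouse 1 or 3 (4340 and 3791 genes at an unadjusted p under 0.05). Summed markers of acinar cells, the secretory cells of the gland, were high in every library, between 1507 and 2738 CPM, and the highest sum, in WT mouse 3, held 1507 CPM of *Car6* (a secreted carbonic anhydrase). Skeletal muscle markers summed to 376 and 274 CPM in WT mice 1 and 2 and 269.9 CPM in *Tlr7* KO mouse 4, and to at most 10.5 CPM elsewhere. Salivary gland markers summed to 1979 CPM in WT mouse 3, 1706 CPM in *Ifnar1* KO mouse 2 and 139 CPM in *Ifnar1* KO mouse 1, and to at most 10.9 CPM elsewhere.

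*Nmu* was high in libraries with and without these other tissues. The mouse with the most *Nmu*, *Tlr7* KO mouse 3, had 0.114 CPM of muscle and 8.84 CPM of salivary markers. WT mouse 3, with the most salivary signal, had the least *Nmu*, whereas *Ifnar1* KO mouse 2, with nearly as much, had 9.31 CPM. The ratio of *Nmu* in *Tlr7* KO to WT mice had a log2 value of 4.71 with all mice, 5.71 without the 3 muscle-marker mice, which leaves WT mouse 3, the WT mouse with the least *Nmu*, alone in its group, and 4.38 without the salivary-marker mouse of these groups. The part of salivary tissue in the value of *Ifnar1* KO mouse 2 was not tested. That mouse also had 18.3 CPM of B cell and 14.4 CPM of T cell markers, the highest of its group.

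B and T cell markers moved opposite to *Nmu* between WT and *Tlr7* KO mice, whereas myeloid markers did so only in part and mast cell markers did not as a list. Summed B cell markers were 72.0 to 248 CPM in WT, 5.24 to 43.2 CPM in *Tlr7* KO and 2.30 to 18.3 CPM in *Ifnar1* KO mice, and all 6 genes fell in each knockout, where 17.8% (*Tlr7* KO) and 12.4% (*Ifnar1* KO) of all genes tested fell. T cell markers were 25.5 to 80.7, 6.19 to 31.3 and 1.59 to 14.4 CPM, with overlap between WT and *Tlr7* KO mice, and 7 of 8 fell in each knockout. Of the myeloid markers 3 of 6 fell in *Tlr7* KO mice (median log2 fold change -0.41). Of the mast cell markers 1 of 5 fell (median -0.06), near the 17.8% of all genes, and it was *Kit*, which is also among the duct markers that fell. Myeloid sums were 179.8 to 318 CPM in WT, 156 to 179.6 CPM in *Tlr7* KO and 51.3 to 143 CPM in *Ifnar1* KO mice. The sums did not overlap, but WT and *Tlr7* KO mice nearly met. Most of each sum was *Lyz2*, with 150.2 CPM in WT mouse 2. *Itgam*, *Cd68*, *Csf1r* and *Adgre1* overlapped between WT and *Tlr7* KO mice. Mast cell sums overlapped, at 8.82 to 16.9 CPM in WT and 9.41 to 12.6 CPM in *Tlr7* KO mice. *Ifnar1* KO mice 1 and 3 had B cell sums of 8.98 and 2.30 CPM, as low as *Tlr7* KO mice. Their *Nmu* levels, 0.615 and 0.627 CPM, were above WT mice 2 and 3 and within the WT range only through WT mouse 1 (0.746 CPM). Of the myoepithelial markers, the contractile cells around acini, 8 of 9 tested fell in *Tlr7* KO mice, and their sum was 114 to 136 CPM in WT, 61.0 to 80.0 CPM in *Tlr7* KO and 81.9 to 85.3 CPM in *Ifnar1* KO mice. Of 10 acinar markers, 4 (*Pigr*, *Creb3l1*, *Aqp5* and *Bhlha15*) rose and 1 fell in *Tlr7* KO mice, against 14.6% and 17.8% of all genes, but after scaling by library size only 1 (*Pigr*) rose and 3 fell, where 0.883% of all genes rose and 30.7% fell. Summed duct markers were 522 to 608 CPM in WT, 626 to 719 CPM in *Tlr7* KO and 659 to 679.7 CPM in *Ifnar1* KO mice, without overlap between WT and either knockout, and of 11 tested in *Tlr7* KO mice 1 (*Krt8*) rose and 3 fell, or 0 and 5 by library size only. In whole tissue, fewer cells of a type and less RNA per cell cannot be told apart, and the part of these changes in the level of *Nmu* was not tested.

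Neuron markers were near 0. Of 15 neuron markers, 6 were in the main table, none had enough counts to be tested, and their sum was 0.0418 to 0.611 CPM. The defining cholinergic marker *Chat* had 0 counts in every library of the second table. The sum was 0.0852 to 0.611 CPM in WT mice and 0.190 to 0.524 CPM in *Tlr7* KO mice, with overlap. Endocrine cell markers other than *Pax6*, which the gland's own epithelium expresses, were also near 0, and *Chga*, the granule protein chromogranin A, had 1 count over all libraries of the second table.

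**Figure D2:**
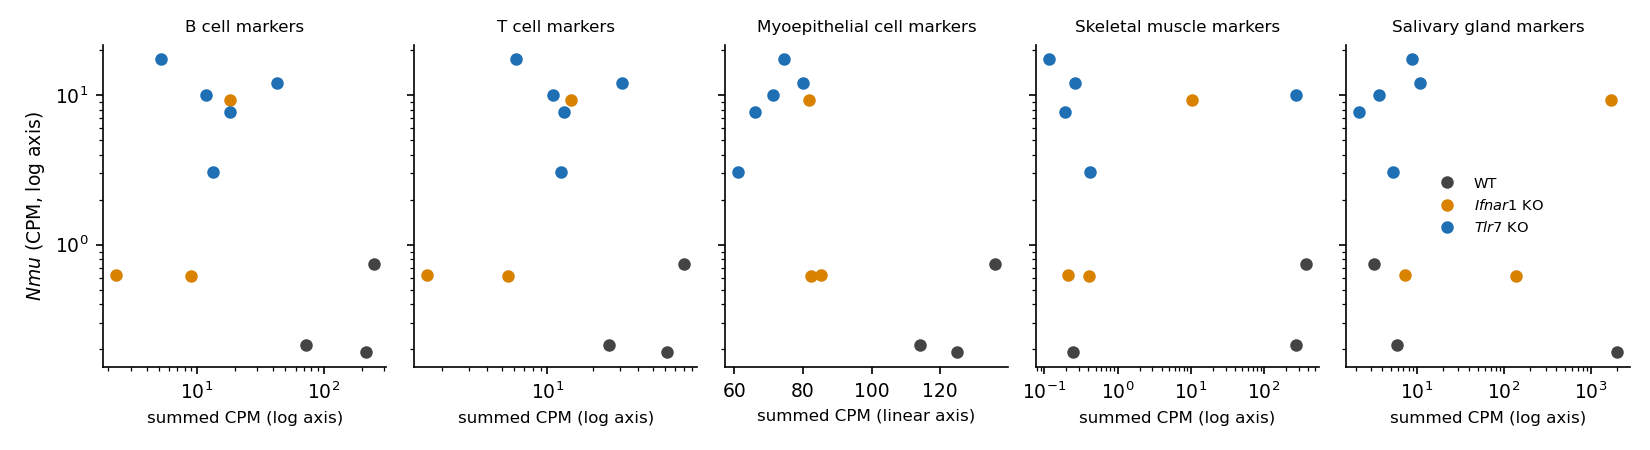
*Nmu* in CPM (y, log axis) against the summed CPM of 5 marker lists (x, log axes except the linear axis for myoepithelial markers), 1 point per mouse, coloured by group. *Tlr7* KO mice are high for *Nmu* at low B cell and myoepithelial sums, and *Ifnar1* KO mice 1 and 3 are low for *Nmu* at low B and T cell sums. The T cell sums of WT and *Tlr7* KO mice overlap, with *Tlr7* KO mouse 2 at 31.3 CPM and WT mouse 2 at 25.5 CPM.

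The receptors of neuromedin U had counts at or near 0. *Nmur1*, *Nmur2* and *Nms*, which encodes the related peptide neuromedin S, were in the second table only. *Nmur1* had 3 counts in all, with no more than 2 in any library, and *Nmur2* and *Nms* had 0 in every library. A 0 in that table, here and for the other genes given, need not mean no expression. The muscle gene *Tnnc2* had 0 counts in every library there, but up to 824 in the main table. At 12233586 to 16621073 counts per library, a receptor in a rare cell could have been missed. Receptors of related peptides were as low, since *Ntsr1* (a neurotensin receptor) had at most 3 counts and *Trhr* (the thyrotropin-releasing hormone receptor) at most 2.

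Genes of the Gq pathway were measured in full, and they moved in both directions. In *Tlr7* KO mice 7 of 11 passed the test, against 32.4% of all genes tested, with 3 higher and 4 lower, against 14.6% and 17.8%. The list's median log2 fold change was 0.11, and that of all genes was -0.05. *Gnaq*, the Gq alpha subunit, rose from 14.8 ± 0.848 CPM in WT to 22 ± 1.59 CPM in *Tlr7* KO mice (log2 fold change 0.56, SE 0.0833, adjusted p = 0.00223, edgeR). *Gna14*, a relative of it, rose by 0.78 (adjusted p = 0.0022, edgeR) and the calcium channel *Itpr3* by 0.53 (adjusted p = 0.00485, edgeR). After scaling by library size only these increases were 0.06, 0.27 and 0.03 and did not pass the test.

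The members that fell include a pair of calcium channels. *Itpr2* fell from 8.63 ± 1.99 to 3.16 ± 0.685 CPM (log2 fold change -1.46, SE 0.202, adjusted p = 0.00179, edgeR), and *Itpr1* had a log2 fold change of -1.17 (adjusted p = 0.0042, edgeR). *Gna15* (-1.38, adjusted p = 0.034, edgeR) and *Plcb2* (-1.51, adjusted p = 0.0466, edgeR), which blood cells use, were lower with overlapping groups. Both lost the call without any one of WT mice 1 and 3 and *Tlr7* KO mice 1, 3, 4 and 5, with adjusted p between 0.0589 and 0.176 (edgeR). *Plcb4*, a phospholipase C, was 49.7 ± 9.15 CPM in WT and 54.0 ± 4.04 CPM in *Tlr7* KO mice (log2 fold change 0.11, adjusted p = 0.476, edgeR).

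In *Ifnar1* KO mice 3 of the 11 Gq genes passed the test, against 19.2% of all genes tested (6.81% higher). *Gnaq* had a log2 fold change of 0.38 (adjusted p = 0.0443, edgeR), but its call was lost in 11 of 17 alternatives, among them the second table (0.36, adjusted p = 0.0578) and scaling by library size only (0.07, adjusted p = 0.917). *Itpr2* had a log2 fold change of -1.46 (adjusted p = 0.0213, edgeR) and *Plcb2* of -2.55 (adjusted p = 0.035, edgeR). Between *Ifnar1* KO and *Tlr7* KO mice 0 of the 11 were called by edgeR or DESeq2, with 3 at an unadjusted p under 0.05, and 1.77% of all genes were called. Over all the peptide-pathway lists given here, those of Gq, precursor processing, granule, neuropeptide, receptor and type 2 immunity genes, 10 of 39 genes tested were called by edgeR in *Ifnar1* KO compared to WT mice (25.6%, against 19.2% of all genes), and 0 of them without WT mouse 1, WT mouse 3, *Ifnar1* KO mouse 1 or *Ifnar1* KO mouse 3, 19 without WT mouse 2 and 6 without *Ifnar1* KO mouse 2. The same lists had 16 calls in *Tlr7* KO mice (41.0%, against 32.4% of all genes), 8 without WT mouse 1 or WT mouse 3 and 26 without WT mouse 2.

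Transcripts of enzymes of the kinds that process the neuromedin U precursor were found in every group. Neither the enzymes nor the peptide was measured. Whole-gland RNA does not show whether the cells with *Nmu* held these transcripts. *Pam*, the amidating enzyme, was at 124 ± 20.4 CPM in WT, 142 ± 8.68 CPM in *Tlr7* KO and 162 ± 8.55 CPM in *Ifnar1* KO mice. It did not pass the test in *Tlr7* KO (log2 fold change 0.18, adjusted p = 0.241, edgeR) or in *Ifnar1* KO mice (0.37, adjusted p = 0.141, edgeR). *Furin*, a proprotein convertase of the secretory pathway, was 96.8, 99.0 and 107 CPM in WT, 135 to 161 CPM in *Tlr7* KO and 136, 149 and 179 CPM in *Ifnar1* KO mice. Its increase was 0.53 on the log2 scale (SE 0.0878, adjusted p = 0.00337, edgeR) in *Tlr7* KO and 0.61 (SE 0.159, adjusted p = 0.0386, edgeR) in *Ifnar1* KO mice, and after scaling by library size only it was 0.03 and 0.28 and did not pass. *Cpe*, carboxypeptidase E, was 3.79 to 3.99 CPM in WT and at most 2.21 CPM in either knockout, a log2 fold change of -1.02 (SE 0.143, adjusted p = 0.00189, edgeR) and -1.07 (SE 0.197, adjusted p = 0.0224, edgeR), and the second of these calls was lost by library size only (-1.38, adjusted p = 0.0505) and without WT mouse 1 or 3 or *Ifnar1* KO mouse 1 or 3 (0.0689 to 0.0799). The related carboxypeptidase *Cpd* was 101 ± 18.9 CPM in WT, 130.4 ± 9.88 CPM in *Tlr7* KO and 137 ± 9.70 CPM in *Ifnar1* KO mice. In *Tlr7* KO mice it was called by DESeq2 (adjusted p = 0.0185) but not by edgeR (log2 fold change 0.36, adjusted p = 0.0511). *Furin* and *Cpe* were the only edgeR calls among the 9 processing genes tested, 2 in each knockout or 22.2%, against 32.4% (*Tlr7* KO) and 19.2% (*Ifnar1* KO) of all genes, and the neuroendocrine convertase gene *Pcsk1* had 1 count over all libraries of the second table.

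*Ptprn2*, which encodes the dense-core granule protein phogrin, was the member of the granule list that moved most like *Nmu*. It had 0.645, 0 and 0.301 CPM in WT mice, 3.56, 2.95, 5.16, 5.70 and 4.09 CPM in *Tlr7* KO mice and 0.854, 1.91 and 1.25 CPM in *Ifnar1* KO mice. The groups did not overlap, and *Ifnar1* KO mouse 2 was again the highest of its group. *Ptprn2* rose by 3.68 on the log2 scale in *Tlr7* KO compared to WT mice (SE 0.581, adjusted p = 0.00276, edgeR), and it was higher in *Tlr7* KO than in *Ifnar1* KO mice (log2 fold change 1.69, SE 0.296, adjusted p = 0.027, edgeR). The second of these calls was lost without *Ifnar1* KO mouse 1 or 3 or *Tlr7* KO mouse 1, 3, 4 or 5, with adjusted p between 0.0524 and 0.0916 (edgeR). Of the 4 granule genes tested, it alone was called, where 32.4% of all genes were called in *Tlr7* KO compared to WT mice. *Cadps2* (16.6 and 16.7 CPM in WT and *Tlr7* KO mice) and *Ica1* (39.3 and 45.8 CPM) were not called, and *Scg2* and *Vgf* had 0 counts in every library of the second table.

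None of the other neuropeptide genes tested was called higher in *Tlr7* KO mice. Of 28 listed besides *Nmu*, 5 had enough counts to be tested, and 2 of them, *Nmb* and *Pdyn*, were called lower, where 17.8% of all genes fell. The filter used WT counts only, so genes with few WT counts were not tested and could not have been called higher. *Nmb* was 0.519 to 0.554 CPM in WT and 0.115 to 0.304 CPM in *Tlr7* KO mice (log2 fold change -1.60, SE 0.382, adjusted p = 0.0129, edgeR), and its log2 fold change was -1.51 without the 3 muscle-marker mice, which leaves 1 WT mouse (adjusted p = 0.0969, edgeR). *Pdyn*, the dynorphin precursor, was 0.0852 to 0.441 CPM in WT and at 0 in 4 of 5 *Tlr7* KO mice (adjusted p = 0.0144, edgeR), but the groups overlapped, since *Tlr7* KO mouse 2 was at 0.0867 CPM, and the call was lost without WT mouse 3 (adjusted p = 0.0582, edgeR), with a log2 fold change of -3.66 against -3.96 with all mice. Its call in *Ifnar1* KO mice (adjusted p = 0.0389, edgeR) was lost without any one mouse of that group (0.0739 to 0.122). *Nmb* and *Pdyn* passed the filter through WT mice, the group where both were high, so no conclusion is drawn from their calls. *Penk* was 2.68 to 3.34 CPM in WT and 2.90 to 4.93 CPM in *Tlr7* KO mice, with overlap (log2 fold change 0.40, adjusted p = 0.133, edgeR).

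**Figure D3:**
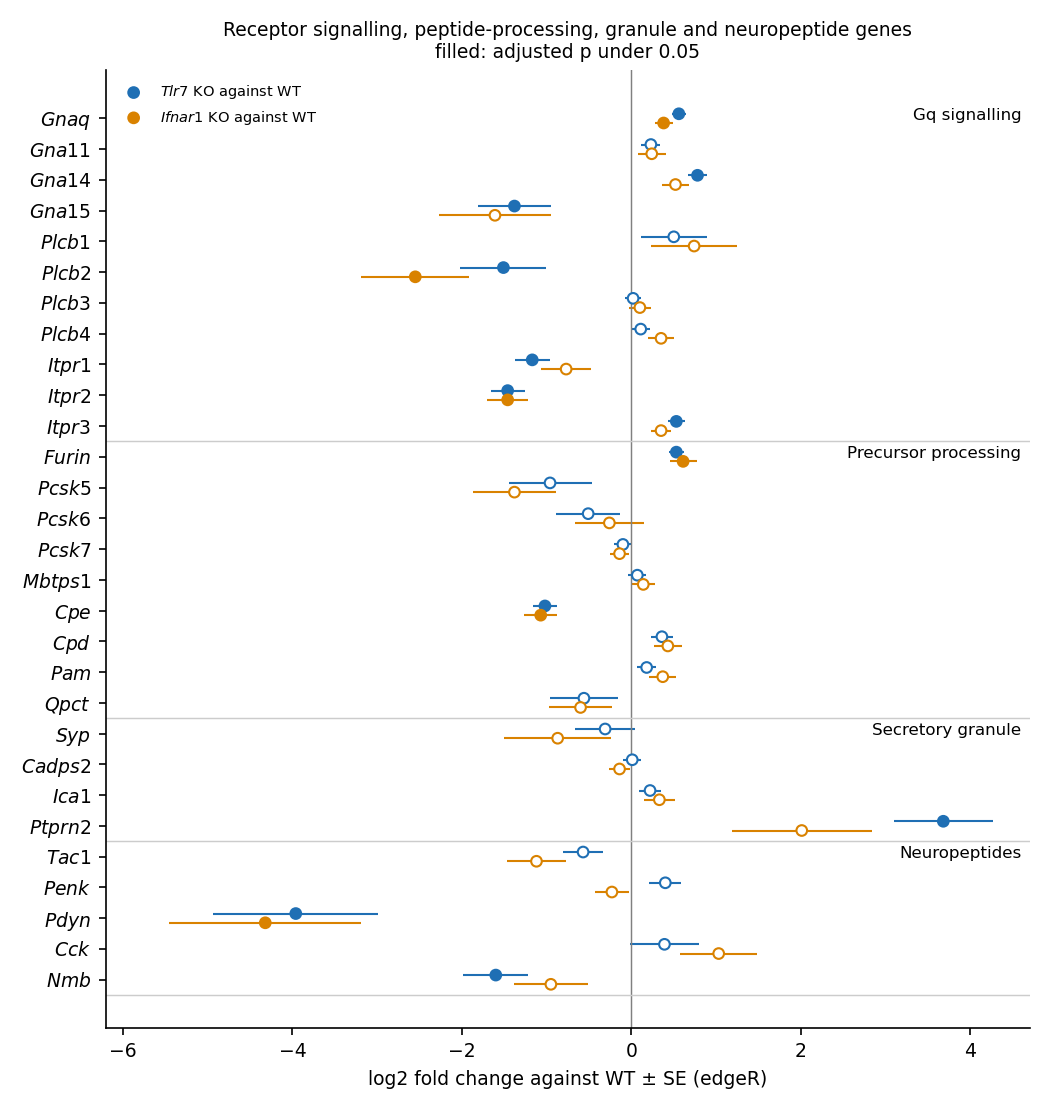
Log2 fold change against WT, with its SE from edgeR, of the tested genes of the Gq, precursor-processing, granule and neuropeptide lists in *Tlr7* KO (blue) and *Ifnar1* KO mice (orange); filled points have an adjusted p under 0.05. *Ptprn2*, at 3.68 in *Tlr7* KO mice, has the largest increase, and *Gnaq*, *Furin*, *Cpe*, *Itpr2*, *Plcb2* and *Pdyn* are filled in both.

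Group 2 innate lymphoid cells, a known target of neuromedin U, left few counts. *Il5*, *Il13* and *Areg*, which encode their products, had 0 counts in every library of the second table. Of 10 type 2 immunity genes tested, 4 fell in *Tlr7* KO and 4 in *Ifnar1* KO mice, against 17.8% and 12.4% of all genes, and none rose. *Il7r*, the receptor for interleukin 7, fell in both (-1.06, adjusted p = 0.0107, and -2.33, adjusted p = 0.0226, edgeR), as did the alarmin *Il33* and the T cell costimulator *Icos*, genes that T cells or stromal cells also express. In *Tlr7* KO mice *Crlf2*, a chain of the TSLP receptor, fell as well, and in *Ifnar1* KO mice *Gata3*, a transcription factor of type 2 lymphocytes. *Gata3* and *Icos* were at most 0.187 and 0.486 CPM in *Ifnar1* KO mice. They passed the filter through WT mice, where they were high, so no conclusion is drawn from their *Ifnar1* KO calls. The *Tlr7* KO call of *Il7r* was lost without WT mouse 1 (adjusted p = 0.0501, edgeR). Those of *Il33*, *Crlf2* and *Icos* were lost without WT mouse 1, WT mouse 3 or *Tlr7* KO mouse 1 (adjusted p 0.0514 to 0.1000, edgeR), *Il33* and *Crlf2* also without *Tlr7* KO mouse 3 (0.0556 and 0.0517), *Il33* without mouse 4 (0.0523) and *Icos* without mouse 5 (0.0516). The transcription factor *Rora* was 7.01 ± 0.469 CPM in WT and 7.53 ± 0.450 CPM in *Tlr7* KO mice and was not called.

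The genes on either side of *Nmu* did not share its increase in size. The nearest expressed neighbour was *Clock*, a core gene of the circadian oscillator, 28.7 kb away. *Clock* was 23.0 ± 4.89 CPM in WT and 33.9 ± 7.88 CPM in *Tlr7* KO mice (log2 fold change 0.56, SE 0.2, adjusted p = 0.0584, edgeR), with overlap, and DESeq2 called it (adjusted p = 0.0267). Of the 7 neighbours tested among the 5 protein-coding genes on each side, *Tmem165* (a Golgi membrane protein, 0.42, adjusted p = 0.0294) and *Kdr* (the endothelial receptor for VEGF, 0.88, adjusted p = 0.0436, edgeR) rose in *Tlr7* KO mice, against 14.6% of all genes, and 0 were called in *Ifnar1* KO mice by edgeR or DESeq2, with 0 at an unadjusted p under 0.05. *Tmem165* had -0.03 after scaling by library size only and lost its call without WT mouse 1 or 3 or *Tlr7* KO mouse 3 or 5 (adjusted p 0.0590 to 0.109, edgeR). *Kdr* lost its call without any one mouse other than *Tlr7* KO mouse 2 (adjusted p 0.0532 to 0.0986, edgeR). It was also lost by library size only (log2 fold change 0.35, adjusted p = 0.499, edgeR) and in the second table (0.89, adjusted p = 0.0871, edgeR).

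*C530008M17Rik*, 292.7 kb from *Nmu*, had too few WT counts to be tested but a like pattern between WT and *Tlr7* KO mice. It had 0.305, 0.128 and 0.137 CPM in WT, 0.919, 1.26, 1.48, 1.24 and 1.21 CPM in *Tlr7* KO and 0.239, 1.05 and 1.21 CPM in *Ifnar1* KO mice. Unlike *Nmu*, it was high in *Ifnar1* KO mouse 3 too. *Pdcl2*, 2.3 kb from *Nmu*, and *Gm7271*, 120.3 kb away on the other side, were in the second table only, with 1 and 0 counts over all libraries. An antisense transcript, *4930432L08Rik*, overlaps the span of *Nmu* on the plus strand. It had 1 count in all in the second table, so few reads had been given to it, and it is not stated whether the counting used strand.

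**Figure D4:**
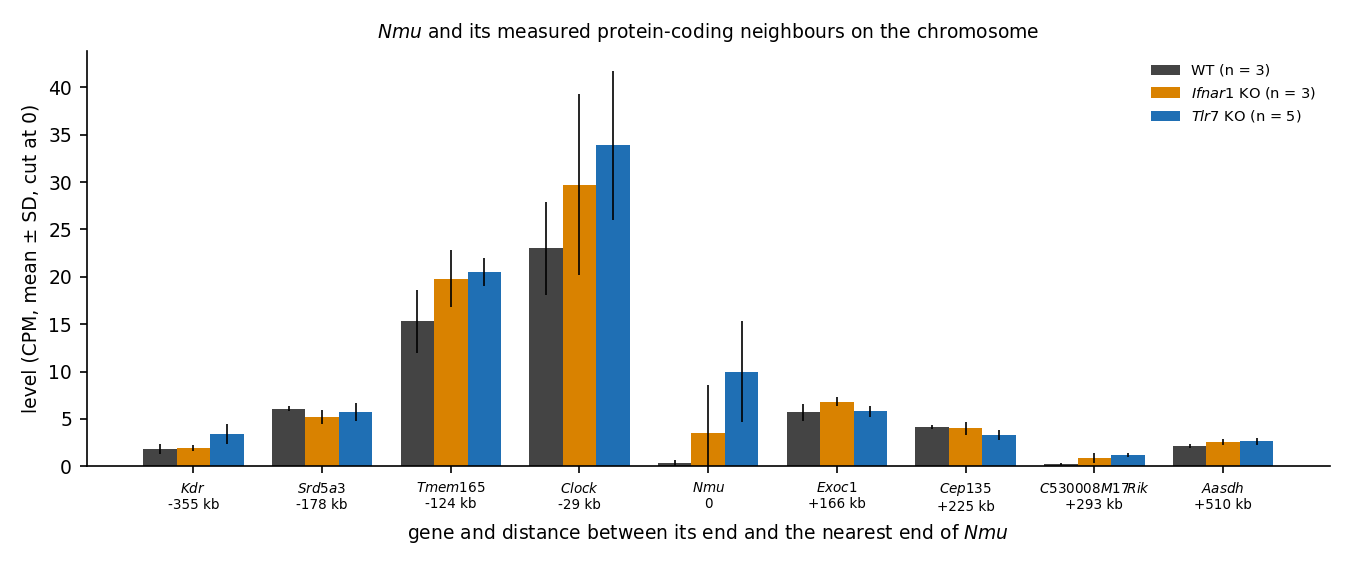
Level in CPM (mean ± SD, bars cut at 0) of *Nmu* and the 8 neighbouring protein-coding genes in the main table, in order along the chromosome, with the distance to the nearest end of *Nmu* (minus is towards lower coordinates); n = 3 WT, 3 *Ifnar1* KO and 5 *Tlr7* KO mice. *Nmu* rises from 0.384 CPM in WT to 10.01 CPM in *Tlr7* KO mice, while *Clock*, *Exoc1* and *Cep135* overlap between groups.

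Genes of the circadian clock were compared because *Clock* is the neighbour of *Nmu* and because the *Nmu* promoter holds an E-box. This list was made with earlier results known. In *Tlr7* KO mice 8 of 15 were called, against 32.4% of all genes, and in *Ifnar1* KO mice 6 of 15, against 19.2%, with medians of 0.56 and 0.82. After scaling by library size only, *Per3*, *Cry2*, *Tef* and *Nr1d2*, 4 of the 6 that rose in *Tlr7* KO mice, were not called (log2 fold change 0.15 to 0.67), nor were *Cry2*, *Dbp*, *Tef* and *Bhlhe41* in *Ifnar1* KO mice (0.55 to 2.15). *Arntl*, which encodes BMAL1, was 1.90, 11.5 and 2.38 CPM in WT and 0.459 to 0.694 CPM in *Tlr7* KO mice (log2 fold change -3.26, SE 0.565, adjusted p = 0.00386, edgeR). *Nr1d1*, which encodes the repressor REV-ERB alpha, was 2.77 to 8.01 CPM in WT and 15.7 to 22.4 CPM in *Tlr7* KO mice (1.77, SE 0.273, adjusted p = 0.00257, edgeR), and *Dbp*, an output of the clock, rose by 2.32 (adjusted p = 0.011, edgeR). These sizes moved with single WT mice, since *Arntl* was at -1.99 without WT mouse 2 and *Dbp* at 3.26 without WT mouse 1, and both kept the call. *Nr1d1*, *Dbp* and *Arntl* were also called in *Ifnar1* KO mice, at 2.15, 2.59 and -3.02, where *Arntl* was at -1.75 without WT mouse 2 and *Dbp* at 3.56 without WT mouse 1. *Nr1d1* was 18.0, 30.2 and 25.7 CPM in *Ifnar1* KO mice 1 to 3, above all WT mice also in mice 1 and 3, in which *Nmu* was within the WT range. All 6 calls in *Ifnar1* KO mice were lost without WT mouse 1 or 3 or *Ifnar1* KO mouse 1 or 3, with adjusted p between 0.0549 and 0.119 (edgeR), and those of *Arntl* and *Dbp* also without *Ifnar1* KO mouse 2 (0.0872 and 0.0598). The times at which the glands were taken were not used here, and the part of the time of day in these values was not tested.

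The genes whose pattern was most like that of *Nmu* were found by the root mean square difference of log2 CPM (with a prior count of 2) over the 11 mice, after centring on the mean of the group means, among 11541 genes. The nearest was *Ddc*, which encodes aromatic L-amino acid decarboxylase, the enzyme that makes dopamine and serotonin, with a difference of 0.878 log2 units. *Ddc* was 1.76, 0.809 and 0.465 CPM in WT, 8.46, 8.45, 15.7, 10.2 and 3.77 CPM in *Tlr7* KO and 3.04, 11.2 and 2.67 CPM in *Ifnar1* KO mice. As for *Nmu*, *Tlr7* KO mouse 3 was the highest and mouse 5 the lowest of the group, and *Ifnar1* KO mouse 2 was within the *Tlr7* KO range.

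The other 9 were secreted-protein genes, signalling genes and 1 gene without a name. They were the kallikreins *Klk1b24* (0.969) and *Klk1b26* (1.03), the growth factor *Nrg1* (0.974), *Ptprn2* (1.11), ENSMUSG00000097928 (1.15), the secretoglobins *Scgb2b19* (1.22), *Scgb1b21* (1.23) and *Scgb1b19* (1.27), and the adenosine receptor *Adora1* (1.24). *Klk1b26* was 1.02 to 1.70 CPM in WT, 4.77 to 11 CPM in *Tlr7* KO and 0.990, 10.8 and 1.25 CPM in *Ifnar1* KO mice. Kallikrein and secretoglobin genes have near-identical copies among which reads can be shared, so the level of a single copy is uncertain.

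These genes shared part of the spread of *Nmu* within the knockout groups. *Ifnar1* KO mouse 2 was the highest of its group in 10 of 10 of these genes and within the *Tlr7* KO range in 6, and mice 1 and 3 were below all *Tlr7* KO mice in all 10. In 9 of the 10, all but *Klk1b26*, mice 1 and 3 were above all WT mice, whereas for *Nmu* they were within the WT range through WT mouse 1. Since the ranking used these mice, the counts describe it. The 10 genes are also not all at separate places in the genome. ENSMUSG00000097928 lies within the span of *Nrg1*, and *Scgb2b19* and *Scgb1b19* lie close together on chromosome 7. *Tlr7* KO mouse 5 was the lowest of its group in 5 and *Tlr7* KO mouse 3 the highest in 4, but mouse 5 was the highest for *Scgb1b21* and *Scgb1b19*. Of the 10, *Ddc*, *Klk1b24*, *Nrg1* and *Klk1b26* were again among the nearest in the second table, and a ranking by Pearson correlation, which ignores the size of the change, kept *Ddc* and *Klk1b26*. Of the 10, 6 had a promoter window in the RefSeq table, and none of these held CACGTG.

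The 5 genes with the nearest reversed pattern were *Gm21718* (1.05), *Asgr1* (1.11), *Ttc39b* (1.36), *Gm14002* (1.43) and *Angptl4* (1.44). *Asgr1*, a chain of the asialoglycoprotein receptor, was 0.661 to 1.84 CPM in *Tlr7* KO mice, 14.6, 8.97 and 8.86 CPM in *Ifnar1* KO mice and 6.68, 28.9 and 23.1 CPM in WT mice. It did not mirror *Nmu* within the *Ifnar1* KO group, in which mice 2 and 3 were alike. *Angptl4*, an inhibitor of lipoprotein lipase, was 1.61 to 1.70 CPM in WT and 0.124 to 0.682 CPM in *Tlr7* KO mice, but it was low in both mice 2 and 3 of the *Ifnar1* KO group, at 0.224 and 0.209 CPM. *Ttc39b* was nearer to the reverse of *Nmu* there, with 78.2, 19.4 and 42.9 CPM in *Ifnar1* KO mice 1 to 3, 33.1 to 48.3 CPM in WT and 7.27 to 11.6 CPM in *Tlr7* KO mice, although mouse 1 was above the WT range and mouse 2 above the *Tlr7* KO range.

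**Figure D5:**
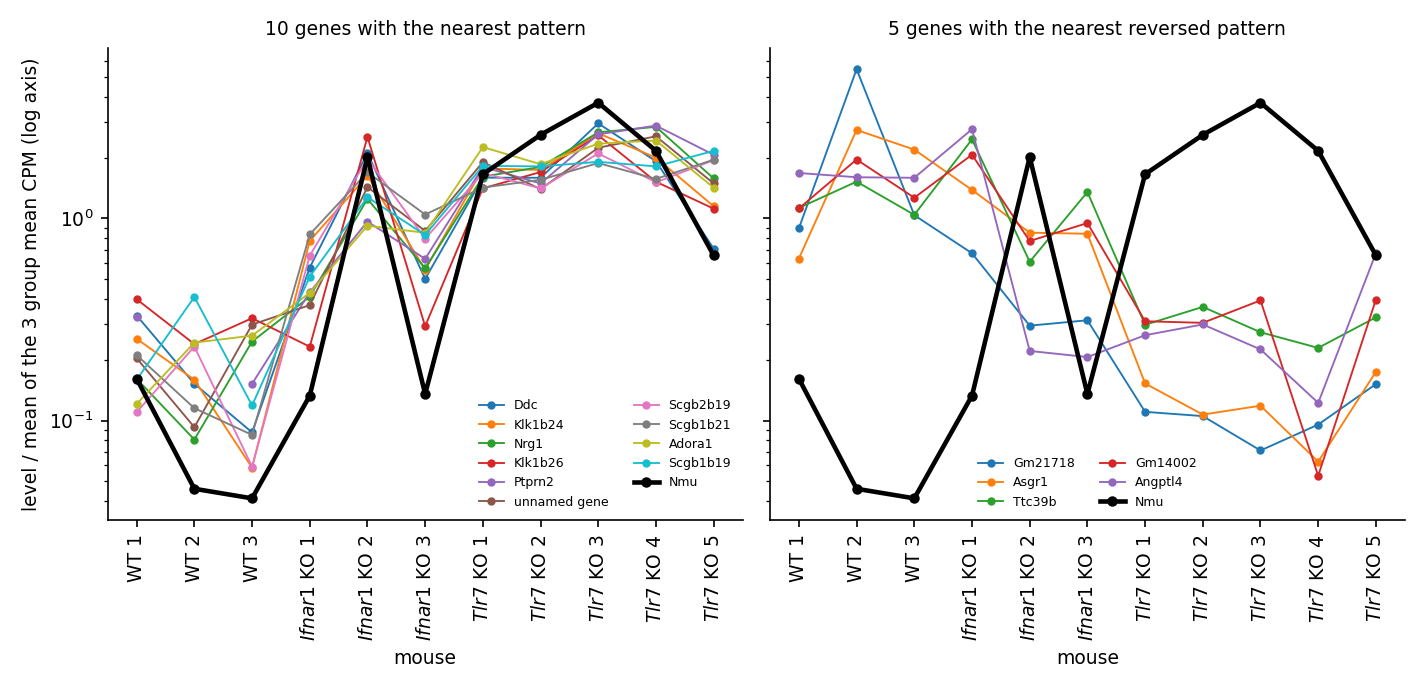
Level of each gene in each mouse divided by the mean of the 3 group means (log axis), for the 10 genes with the pattern nearest to *Nmu* (left) and the 5 nearest to its reverse (right); *Nmu* is the thick black line and a value of 0 is not drawn. *Ifnar1* KO mouse 2 stands above mice 1 and 3 in all 10 genes at left, whereas at right *Ttc39b* is higher in mouse 3 (42.9 CPM) than in mouse 2 (19.4 CPM) and *Asgr1* and *Angptl4* are alike in both.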

How the data were processed

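Whole lacrimal gland RNA was sequenced on an Illumina HiSeq instrument. The authors made gene-level estimated counts from salmon transcript estimates through tximport, and the deposited values are whole numbers. The deposited second table holds counts from a gene counter that is not given in the sources used here; the submitters' processing notes name HISAT2 2.1.0 and mm10. The main table is named as normalized, but its totals differ as raw counts do. It has 485 genes without a symbol (at most 0.729% of a library). Data of 1 column, named as a further *Ifnar1* KO mouse but without a sample, were not used. The authors dropped an *Ifnar1* KO mouse that clustered with WT.

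CPM were scaled by TMM over 11 mice. Genes with at least 30 WT counts (13937) were tested with edgeR 4.0.16 (R 4.3.3) by the quasi-likelihood test in a separate fit per pair of groups. P-values were adjusted by Benjamini-Hochberg over all of them, two-sided, at 0.05. DESeq2 1.42.0 and other settings were tried. No batch was given. Labels do not say more of replicates than that they are mice, so p-values measure the spread between these animals.

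*Nmu*, the gene lists, the profile measure and the motifs were chosen with earlier results of these data known. Named genes are *Nmu*, members of the lists that were called or most abundant, its 5 neighbours on each side, the 10 nearest and 5 reversed patterns (mean of at least 1 CPM) and genes ranked around it. Promoters are from RefSeq and gene models from GENCODE M21.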

Additional observations from a re-analysis of the deposited data

Results flagged for a closer look

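In the group of 5 *Tlr7* KO mice, 44 series of values were checked for a mouse far from the others by Dixon's ratio, and 6 passed its 95% limit, where chance alone gives about 1 in 20. *Nmu* was not among them in either table. *Scgb1b19*, of the genes most like *Nmu*, was 42.7 CPM in mouse 5 against 37.7 CPM in the next mouse. *Gm14002*, of the reversed genes, was 0.289 CPM in mouse 4 against 1.65 CPM. *Nmb* was 0.304 CPM in mouse 3 against 0.165 CPM. *Icos* was 1.26 CPM in mouse 2 against 0.315 CPM, *Gata3* was 0.780 CPM in mouse 2 against 0.380 CPM, and *Pdyn* was 0.0867 CPM in mouse 2 and 0 in the others, a level of a few counts.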

How the results depend on the processing

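*Nmu* was higher in *Tlr7* KO than in WT mice under all alternatives run. The log2 ratio of means was 4.71, and it was 4.16 after scaling by library size only. The difference of mean log2 CPM was 4.79 with no pseudocount, 3.44 with 0.5 CPM and 2.21 with 2 CPM. Leaving out a mouse gave 4.38 to 5.62, and leaving out the muscle-marker mice, which leaves 1 WT mouse, 5.71. The *Ifnar1* KO to WT value of 3.20 became 2.29 on averaging log2 CPM with no pseudocount, and 1.44 and 0.85 with those pseudocounts, 0.69 to 4.11 without a mouse, and 0.39 without the salivary-marker mice, which leaves *Ifnar1* KO mouse 3 alone in its group. The *Tlr7* KO to *Ifnar1* KO value of 1.51 was 1.01 to 4.01 without a mouse and 3.99 without the salivary-marker mice. Leaving out marker mice and the log2 mean with no pseudocount were chosen after seeing the data. Where 1 mouse is left in a group, edgeR takes its spread from the other group.

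Counts of called genes moved more. Between WT and *Tlr7* KO mice 4515 genes were called, 2563 to 6583 without a mouse and 2555 without the salivary-marker mice. The split of calls turned from 54.8% lower to 97.2% lower after scaling by library size only, which moved the median of all genes to -0.54. Between WT and *Ifnar1* KO mice 2679 were called (64.6% lower), 1339 by library size only (96.2% lower), 5074 with all 11 mice in a single fit, 1586 without the muscle-marker mice (1 WT mouse left) and 231 without the salivary-marker mice (1 *Ifnar1* KO mouse left). Without a mouse the count was 0 to 4818. The 0 came from edgeR without *Ifnar1* KO mouse 1 or 3, with 4340 and 3791 genes at an unadjusted p under 0.05. DESeq2 with all mice called 3356. Between the knockouts 247 were called (47.4% lower), 577 with DESeq2, 94 with all mice in a single fit, 101 without the muscle-marker mice, 84 to 863 without a mouse, and by library size only 69.4% were lower.

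Pathway-list calls against *Tlr7* KO mice were 16, with 8 to 26 without a mouse and 10 without the salivary-marker mice. Against *Ifnar1* KO mice they were 10, with 0 to 19 without a mouse, 20 in the single fit, 6 without the muscle-marker and 0 without the salivary-marker mice. Between the knockouts the 1 call, *Ptprn2*, was 0 to 2 without a mouse, 2 with DESeq2, and 0 in the single fit or without the muscle-marker mice. It was also 0 in the second table and with 30 counts in every pair of WT mice, where the filter had removed *Ptprn2*. *Tmem165* turned to -0.03 by library size only. For the others the cause was not tested.

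The labels do not say whether the replicate numbers pair the mice. Same-numbered mice correlated at -0.44 to 0.03 between WT and either knockout, and at 0.06 to 0.34 between the knockouts. So few values cannot settle whether mice of the same number shared handling. With the replicate block, 15, 0 and 537 genes were called in the 3 comparisons (in the second, 3784 at an unadjusted p under 0.05, edgeR), and 0, 0 and 2 of the pathway lists.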
